A study of Mus musculus with 19 samples.

Results

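The D-type cyclins Ccnd1, Ccnd2 and Ccnd3 and the kinases they activate, Cdk4 and Cdk6, were followed by microarray in NIH3T3 cells, a line of mouse embryonic fibroblasts, as the cells left quiescence. The members were all probe sets whose annotated gene symbol is 1 of these 5, which gave 19 of the 45037 non-control probe sets of the array (3 for Ccnd1, 7 for Ccnd2, 3 for Ccnd3, 3 for Cdk4 and 3 for Cdk6), and 5 of the 18193 genes named on it. The symbols were picked by family membership, with earlier results of these data known.

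D-type cyclins couple growth factor signals to the cell cycle. They bind CDK4 or CDK6, and the complexes phosphorylate the retinoblastoma protein RB and its relatives p107 and p130, which otherwise hold E2F transcription factors in check. INK4 proteins block CDK4 and CDK6 alone, whereas p21 and p27 bind cyclin-CDK complexes. In fibroblasts, transcription of Ccnd1 is a textbook target of the RAS-RAF-MEK-ERK cascade, while CDK4 is usually present throughout the cycle.

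The series holds 19 arrays in 11 groups. Cells received FGF (bFGF, 50 ng/ml) with the MEK inhibitor U0126 (20 µM) from 0.5 h before it, or FGF alone, and each condition was measured at 1 h with 1 array and at 4, 7 and 12 h with 2 arrays. In a further pair of groups with 1 array each, U0126 was added 1 h after FGF and cells were taken at 7 h, or it was added 7 h after FGF and cells were taken at 12 h. The quiescent cells, which had spent 48 h in 0.1% serum without FGF, gave 3 arrays, and every other group had passed through the same serum starvation before FGF. The labels number 2 experiments; quiescent arrays 1a and 1b are repeats within experiment 1 and were averaged, the other quiescent array and the second array of each pair belong to experiment 2, and the 4 single arrays belong to experiment 1. Nothing in the labels says that the experiments used separate cultures, so the p-values measure the spread between these arrays, which may be technical. No cells kept without FGF, and none given U0126 without FGF, were measured at 1 to 12 h, so time in culture and time with FGF cannot be told apart.

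The values are MAS5 signals, brightness summaries of the perfect-match and mismatch probes of a probe set, scaled by array; a signal cannot be compared between probe sets. The trimmed mean was 500.0 to 501.3 on all arrays and the median signal 60.2 to 88.3. Replicate columns of a group correlated at r = 0.961 to 0.975 over the probe sets tested, and quiescent 1a and 1b at r = 0.966. The 3′ to 5′ signal ratio, a sign of RNA quality, was 0.698 to 0.8 for Gapdh and 1.163 to 1.474 for Actb. All 10 fibroblast markers examined exceeded the 40th percentile of signals throughout the 19 arrays, against 0 of 4 endothelial, 0 of 4 muscle, 0 of 3 adipocyte, 1 of 5 epithelial (Epcam, signals of 187.0 to 566.9) and 1 of 5 leukocyte markers (Csf1r, 106.4 to 253.8).

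Of the 19 member probe sets, 17 were above the 40th percentile of signals on all 19 arrays, and all 19 passed the filter on dim probe sets. The exceptions were Ccnd3 1438805_at, above it on 3 arrays with a median signal of 13.4, and Ccnd3 1444323_at, above it on 16 arrays with a median of 85.5. In GRCm38 coordinates Ccnd1 spans chr7:144929931-144939831, Ccnd2 chr6:127125162-127152188, Ccnd3 chr17:47505051-47599689, Cdk4 chr10:127063535-127067288 and Cdk6 chr5:3341004-3531008. The array files give no position of a probe within its gene, and a suffix such as _a, _s or _x marks a probe set that may bind more than 1 transcript.

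The sequence just before an annotated transcript start of each kinase gene is shown because U0126 gave called differences for Cdk6 and none for Cdk4, as described below. RefSeq promoter sequence (GRCm38.p6) was matched for Cdk4, Cdk6 and 2 starts of Ccnd3. The 250 bases before that start, on the + strand at chr5:3343643-3343892 for Cdk6 and at chr10:127063285-127063534 for Cdk4, read 5′ to 3′ as follows, with E-boxes (CACGTG), letters that MYC-MAX and related factors can bind, in capitals.
Cdk6: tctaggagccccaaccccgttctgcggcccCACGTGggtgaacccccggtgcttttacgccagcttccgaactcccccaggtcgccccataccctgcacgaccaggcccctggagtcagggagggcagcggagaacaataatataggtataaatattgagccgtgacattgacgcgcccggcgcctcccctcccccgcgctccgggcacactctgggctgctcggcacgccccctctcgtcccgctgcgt
Cdk4: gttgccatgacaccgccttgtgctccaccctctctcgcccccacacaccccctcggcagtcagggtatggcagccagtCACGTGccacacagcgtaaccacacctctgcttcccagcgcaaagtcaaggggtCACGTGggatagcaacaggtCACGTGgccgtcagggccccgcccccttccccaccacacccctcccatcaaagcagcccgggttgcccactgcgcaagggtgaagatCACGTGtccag
The Cdk6 window lies inside the gene's span given above, before a start that is not the outermost one, and the Cdk4 window lies outside the Cdk4 span. Cdk4 held 4 E-boxes, beginning 172, 118, 98 and 11 bases before the start, and Cdk6 held 1, beginning 220 bases before it. Of 32851 promoter windows of the same length, 6.02% held the E-box letters at all and 20 windows (0.0609%) held 3 or more copies. Searched on both strands, the E2F letters TTTNNCGC stood 198 bases before the Cdk6 start, were absent from the Cdk4 window and were held by 4.28% of windows. The ETS letters CCGGAA were found in the window of the second Ccnd3 start (12.0% of windows) and the AP-1 letters TGANTCA in none of the 4 member windows (6.75% of windows). None of these motifs overlapped another in the member windows. A match is a string of letters and not a measured site.

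Ccnd1, the D-type cyclin best known as a sensor of mitogens, was 3.12- to 5.24-fold lower with U0126 than with FGF alone from 4 h on, and with FGF alone it was 1.75- to 2.02-fold above quiescent cells at 4 h and 2.51- to 3.55-fold above them at 7 and 12 h. With U0126 from 0.5 h before FGF, the brightest Ccnd1 probe set, 1417420_at, read 964.9 and 1088.2 at 4 h, 1171.6 and 1504.2 at 7 h and 1706.1 and 1919.2 at 12 h. With FGF alone it read 4382.5 and 3543.6 at 4 h, 5714.5 and 5663.6 at 7 h and 5976.0 and 5388.0 at 12 h, against 1939.7, 2111.4 and 2502.2 in quiescent cells. The 6 arrays with FGF alone at these times overlapped neither the U0126 arrays nor the quiescent arrays. A bulk signal does not tell whether each cell holds less of the RNA or fewer cells hold it.

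**Figure D1:**
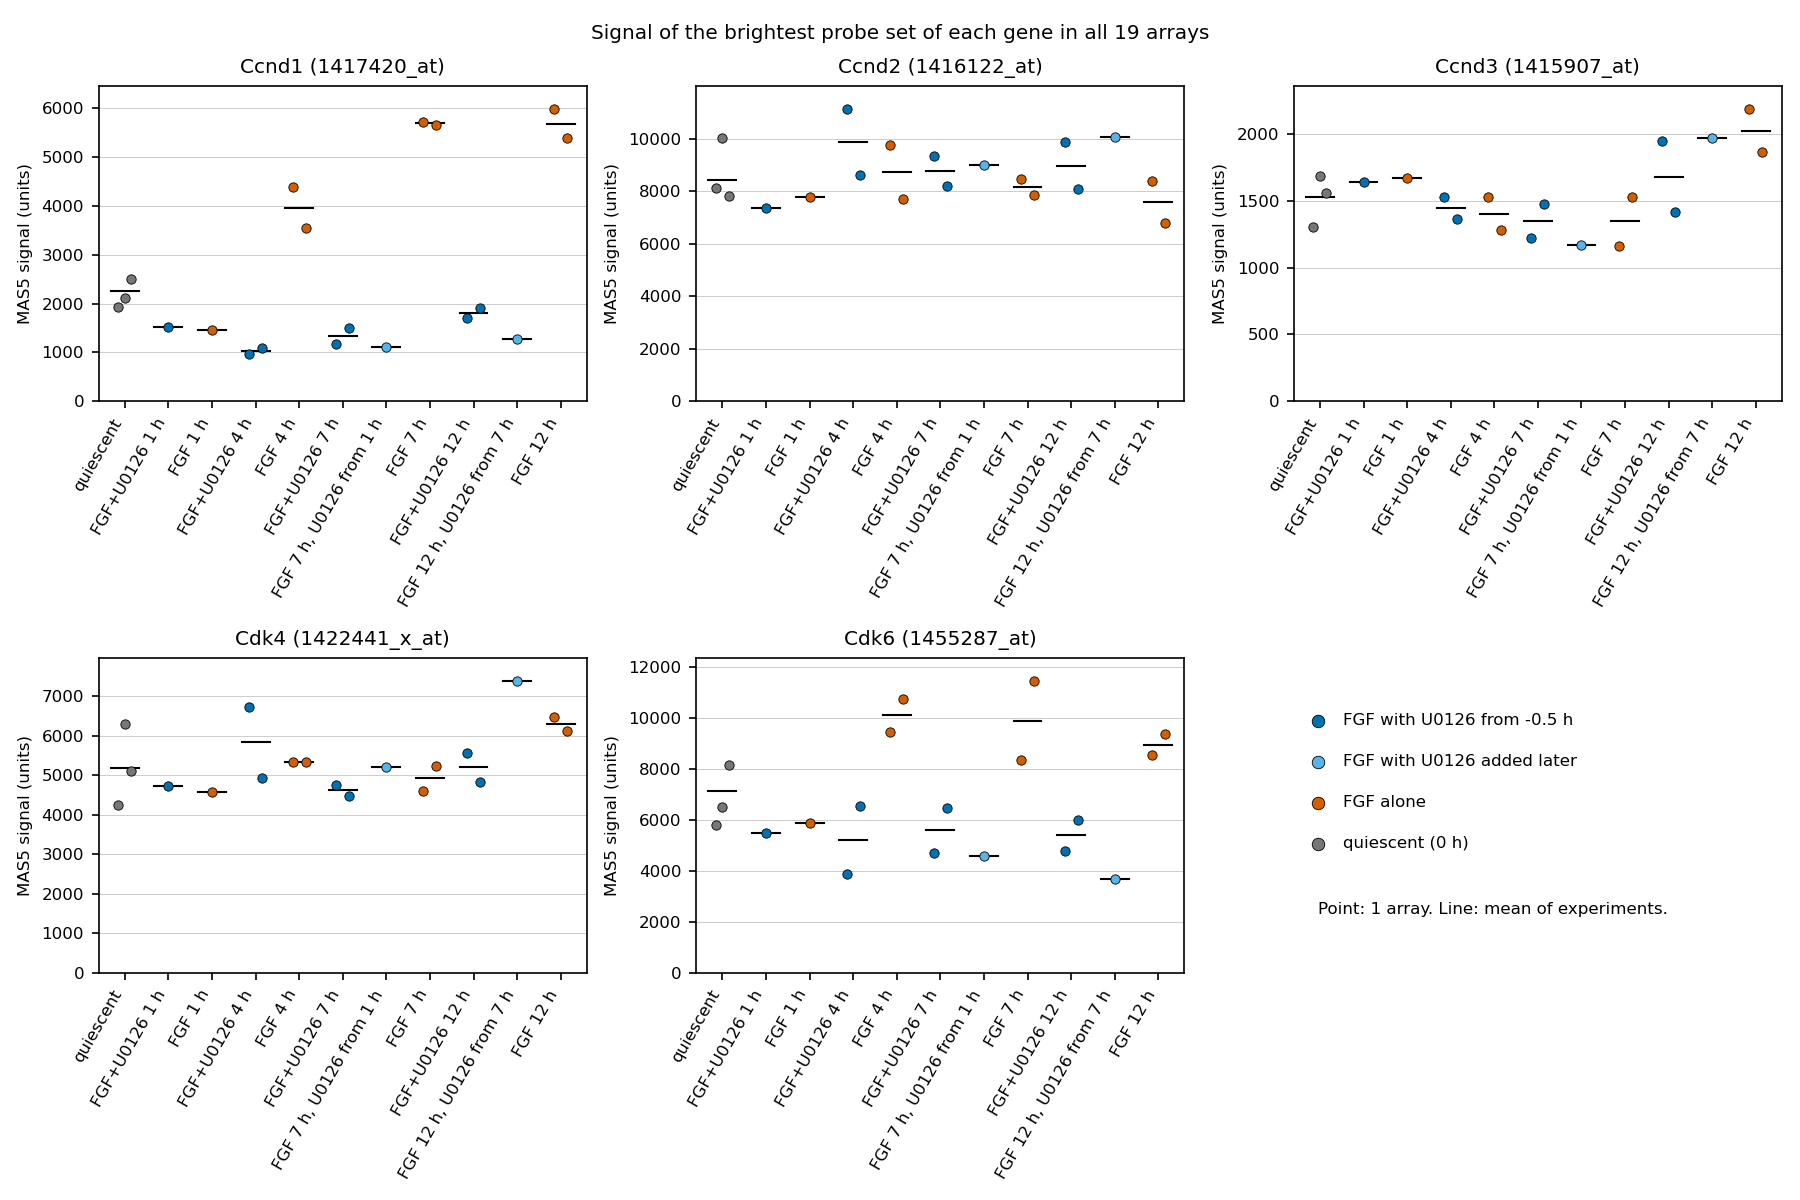
MAS5 signal (y axis, linear, from 0) of the brightest probe set of each gene in every array (points) of the 11 groups (x axis, in order of time), with the mean of the experiments as a line and quiescent 1a and 1b averaged first. For Ccnd1 and Cdk6, arrays with U0126 from 0.5 h before FGF and arrays with FGF alone do not overlap at 4, 7 or 12 h. Those of Ccnd2 and Ccnd3 overlap at each of these times and those of Cdk4 at 4 and 7 h. The Cdk4 array with U0126 from 7 h lies above both FGF arrays at 12 h.

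Against quiescent cells, all 3 Ccnd1 probe sets were higher at 4, 7 and 12 h of FGF (limma on log2 signal, Benjamini-Hochberg adjusted p under 0.05 over all probe sets). At 4 h the log2 differences were 0.96 ± 0.17 (SE) for 1417419_at (adjusted p = 0.0033), 0.80 ± 0.17 for 1417420_at (0.0099) and 1.02 ± 0.17 for 1448698_at (0.0026). They were 1.45, 1.33 and 1.64 at 7 h (adjusted p at most 0.00021) and 1.73, 1.33 and 1.83 at 12 h (at most 8.2e-05). The background share of probe sets called higher was 2.61% at 4 h, 3.59% at 7 h and 6.71% at 12 h. Without the FGF 4 h array of experiment 1 the 4 h rise missed the threshold for 1417419_at (0.78, adjusted p = 0.054) and 1417420_at (0.65, 0.11), and 1417420_at also missed it without both quiescent arrays of experiment 1 (0.65, 0.12) and without a variance trend (0.074).

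The early and later course of Ccnd1 was less sharply resolved. At 1 h the single FGF array read 733.4 for 1417419_at, 1460.8 for 1417420_at and 1073.4 for 1448698_at, below all 3 quiescent arrays for each probe set. The log2 differences from quiescence were -0.41, -0.62 and -0.68, and none passed (lowest adjusted p = 0.3, limma with the lone array assumed to vary like the other groups). At 1 h limma called 0 of the 19 members (3 at an unadjusted p under 0.05, 0 with the experiment as a block) and 0.301% of all probe sets in either direction. From 4 to 7 h Ccnd1 differed by 0.49, 0.53 and 0.63, which did not pass without the experiment as a block. With the block, 1448698_at passed (adjusted p = 0.022); its signals were 5250.8 and 5622.5 at 7 h and 3613.2 and 3419.6 at 4 h. From 7 to 12 h the differences were 0.28, 0.00 and 0.18, with 95% intervals of -0.07 to 0.64, -0.36 to 0.35 and -0.18 to 0.55. Of the 19 members 0 passed by limma without the block in either step (3 and 5 at an unadjusted p under 0.05), and 0.0492% of all probe sets passed from 4 to 7 h and 0.895% from 7 to 12 h.

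With U0126 from 0.5 h before FGF, all 3 Ccnd1 probe sets were lower than with FGF alone at each of the 3 later times. For 1417419_at the log2 differences were -1.78 ± 0.17 at 4 h, -2.25 ± 0.17 at 7 h and -1.99 ± 0.17 at 12 h, which is 3.45-, 4.74- and 3.97-fold lower (adjusted p = 1.9e-05, 2e-06 and 2.8e-06). The differences of 1417420_at were -1.93, -2.09 and -1.64, and those of 1448698_at -1.76, -2.39 and -2.15 (largest adjusted p = 2.4e-05). Averaged over the 3 times, the U0126 differences of the 3 probe sets were -2.01, -1.89 and -2.10 with SEs of 0.10. The share of all probe sets called lower with U0126 was 1.75% at 4 h, 2.04% at 7 h, 4.16% at 12 h and 8.2% on average. No leave-one-out fit ended any of these U0126 calls for Ccnd1, with adjusted p values up to 0.00072. The test of whether the U0126 difference itself varied between 4, 7 and 12 h called 0 of the 19 member probe sets by limma (0 at an unadjusted p under 0.05, and 0 with the experiment as a block), against 0.4% of all probe sets.

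**Figure D2:**
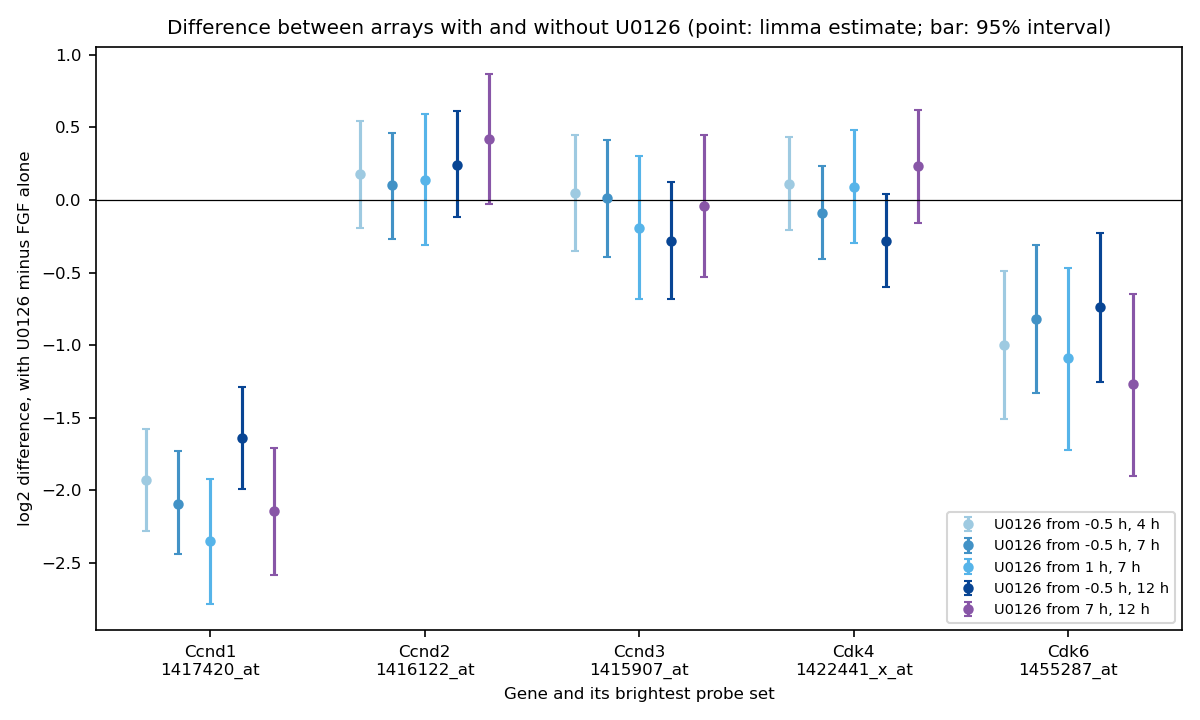
Log2 difference, with U0126 minus FGF alone at the same time, for the brightest probe set of each gene (x axis); points are limma estimates and bars 95% intervals, coloured by when U0126 was added and when cells were taken. All 5 Ccnd1 and all 5 Cdk6 intervals lie below 0, whereas those of Ccnd2, Ccnd3 and Cdk4 include 0.

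Ccnd1 with FGF and U0126 was also set against quiescence. At 4 h the 3 probe sets differed from quiescent cells by -0.82, -1.12 and -0.75 (adjusted p = 0.01, 0.0011 and 0.02) and at 7 h by -0.80, -0.76 and -0.75 (0.01, 0.013 and 0.017), so 3 of 3 passed at both times. At 12 h the differences were -0.26, -0.31 and -0.32 and none passed. For 1448698_at the signals at 7 h were 912.6 and 1154.3 with U0126, against 1346.8, 1848.7 and 1897.8 in quiescent cells, with no overlap. Beside this, 2.27% of all probe sets were called lower than quiescence at 4 h, 2.98% at 7 h and 1.7% at 12 h. These calls depended on single arrays. Without the quiescent array of experiment 2, none of the 3 probe sets passed at 7 h (adjusted p of 0.08, 0.19 and 0.21), and only 1417420_at passed at 4 h. Leaving out the U0126 array of experiment 1 likewise ended all 3 calls at 7 h (0.16, 0.2 and 0.22) and those of 1417419_at (0.075) and 1448698_at (0.15) at 4 h. Without quiescent 1b the 1448698_at calls ended (0.076 at 4 h and 0.078 at 7 h), and without both quiescent arrays of experiment 1 those of 1417419_at did (0.07 and 0.063). Without a variance trend all 3 calls ended at 7 h (0.065, 0.092 and 0.1) and those of 1417419_at (0.064) and 1448698_at (0.11) at 4 h, where fits on only the compared groups also ended them (0.056 and 0.075).

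Adding U0126 after FGF gave Ccnd1 levels near those with U0126 present from the start. When U0126 was added at 1 h and cells were taken at 7 h, 1417420_at read 1103.8, against 5714.5 and 5663.6 with FGF alone. The log2 differences of the 3 probe sets were -2.37, -2.35 and -2.58 (adjusted p at most 1.8e-05), and 1.31% of all probe sets were called lower. When U0126 was added at 7 h and cells were taken at 12 h, 1417420_at read 1274.6, against 5976.0 and 5388.0 with FGF alone at 12 h. Here the differences were -2.05, -2.14 and -1.95 from FGF at 12 h (at most 0.00012) and -1.77, -2.15 and -1.76 from FGF at 7 h, the time U0126 was added (at most 0.00024). The background shares called lower were 1.69% and 1.78%. The late array thus lay 3.39- to 4.43-fold below the level reached when the inhibitor was added.

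No member passed the threshold between late and early addition of U0126. Between U0126 from 1 h and U0126 from 0.5 h before FGF, both at 7 h, the Ccnd1 differences were -0.13, -0.26 and -0.19, with 95% intervals of -0.56 to 0.31, -0.70 to 0.17 and -0.64 to 0.25. At 12 h, U0126 from 7 h against U0126 from the start differed by -0.06, -0.50 and 0.21 (intervals -0.49 to 0.37, -0.93 to -0.07 and -0.23 to 0.65; lowest adjusted p = 0.54). Limma called 0 of all probe sets (0.0%) in the 7 h comparison, where 1002 had an unadjusted p under 0.05 and 3 passed with the experiment as a block, and 0.353% in the 12 h comparison, where 0 of the 19 members passed (6 at an unadjusted p under 0.05, 0 with the block). At 1 h, where each condition has 1 array and the difference was not tested, FGF with U0126 minus FGF alone was -0.44, 0.05 and 0.27 on the log2 scale for the 3 Ccnd1 probe sets. Set against quiescent cells, the 1 h array with U0126 gave 0 called members by limma (2 of 19 at an unadjusted p under 0.05, 0 with the block), against 0.0492% of all probe sets.

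Ordered by the mean of 1417420_at, the FGF groups at 7 h (5689 ± 36, SD, n = 2), 12 h (5682 ± 416) and 4 h (3963 ± 593) stood above quiescent cells (2264 ± 337, n = 2 experiments). FGF with U0126 at 12 h followed (1813 ± 151), then the single arrays at 1 h with U0126 (1512) and without it (1461), FGF with U0126 at 7 h (1338 ± 235), U0126 from 7 h taken at 12 h (1275), U0126 from 1 h taken at 7 h (1104) and FGF with U0126 at 4 h (1027 ± 87.2). Among the groups with 2 experiments, FGF at 7 and 12 h overlapped, and no test separated quiescent cells from FGF with U0126 at 12 h. The group means of the 3 probe sets spanned 2.46 to 2.77 log2 units, and each of the other 2 probe sets correlated with 1417420_at at r = 0.97 over the 11 groups.

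Cdk6, a kinase partner of the D-type cyclins, was 1.81- to 1.94-fold lower with U0126 than with FGF alone, averaged over 4, 7 and 12 h, and its difference between FGF and quiescence was smaller and lay near the threshold. With U0126 from 0.5 h before FGF the brightest probe set, 1455287_at, read 3865.8 and 6562.5 at 4 h, 4716.9 and 6484.9 at 7 h and 4783.0 and 6001.4 at 12 h. With FGF alone it read 9462.7 and 10745.0 at 4 h, 8347.9 and 11461.5 at 7 h and 8552.1 and 9356.5 at 12 h, against 5813.5, 6500.4 and 8153.3 in quiescent cells. All 6 arrays with FGF alone lay above the U0126 arrays and the quiescent ones, and the U0126 array of experiment 2 was the higher of its pair at each of the 3 times. Probe set 1435338_at had the smaller spread, with 2518.4 and 3246.8 for U0126 at 4 h, against 5411.5 and 5629.9 for FGF alone.

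**Figure D3:**
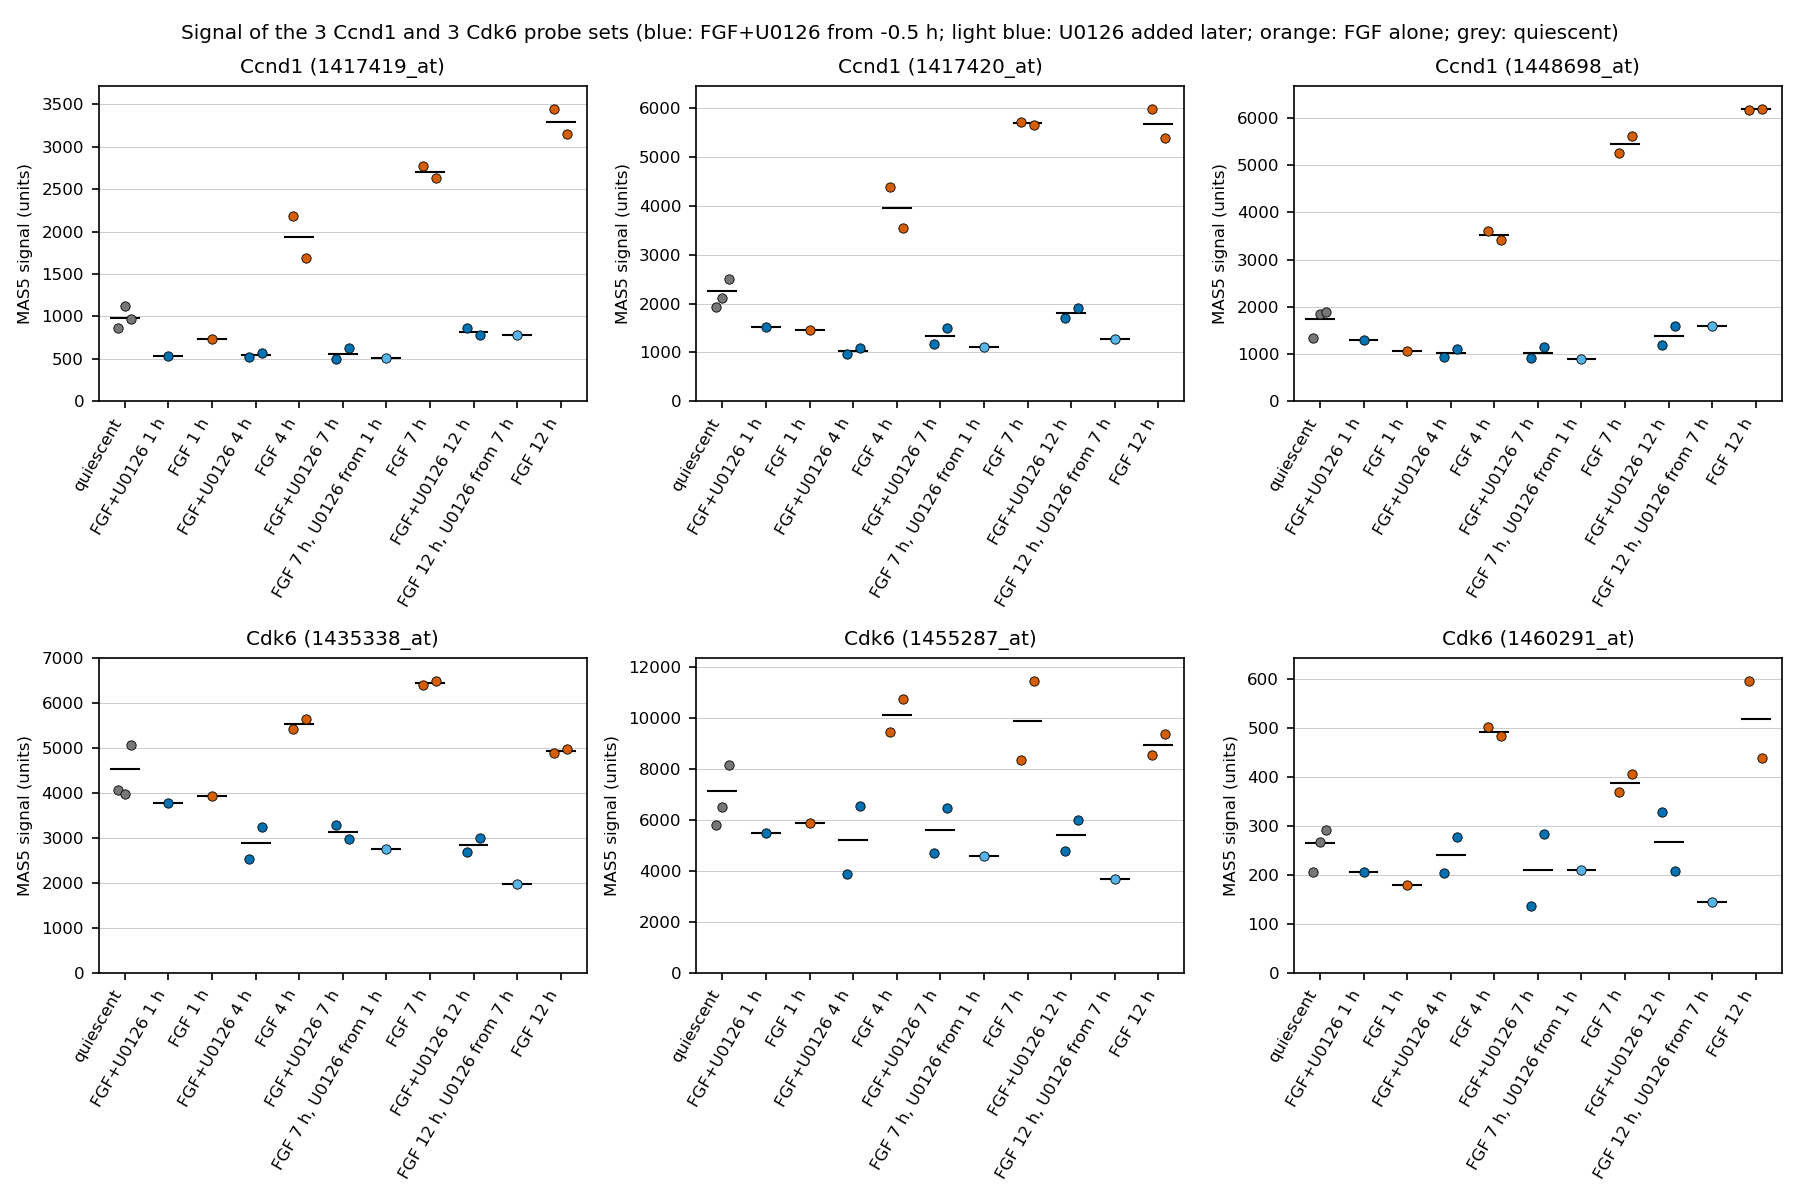
MAS5 signal (y axis, linear, from 0) of the 3 Ccnd1 probe sets (top row) and the 3 Cdk6 probe sets (bottom row) in every array (points), with lines at the mean of the experiments. In all 6 panels the arrays with FGF alone at 4, 7 and 12 h lie above those with U0126 taken at the same time.

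For the U0126 difference of Cdk6, 1435338_at passed at each time with log2 differences of -0.95 ± 0.15 at 4 h, -1.04 ± 0.15 at 7 h and -0.79 ± 0.15 at 12 h (limma, adjusted p = 0.0018, 0.00078 and 0.0036). No leave-one-out fit ended these 3 calls (adjusted p up to 0.045). Probe set 1455287_at passed at 4 h (-1.0 ± 0.24, adjusted p = 0.03) but missed at 7 h (-0.82, 0.078) and 12 h (-0.74, 0.077); with the experiment as a block it passed at 7 h (0.00031) and 12 h (0.00051). Its 4 h call ended without either FGF 4 h array (0.097 and 0.2) and without the U0126 4 h array of experiment 1 (-0.62, 0.3), and also without a variance trend (0.15) and with only the compared groups (0.078). With only the compared groups the 12 h difference passed (0.021). The dimmest, 1460291_at, gave -1.01, -0.93 and -0.94, none of which passed (0.1, 0.14 and 0.088), and all 3 passed with the block (0.031, 0.047 and 0.031). Averaged over the 3 times all 3 probe sets were lower, at -0.92, -0.85 and -0.96 (adjusted p = 2.8e-06, 0.00047 and 0.0016). With Ccnd1 this makes 5 of 19 member probe sets lower with U0126 at 4 h, 4 at 7 h, 4 at 12 h and 6 on average.

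Against quiescence, no Cdk6 probe set passed at 4, 7 or 12 h of FGF in the 11-group fit without the block. The log2 differences at 4 h were 0.29 for 1435338_at, 0.51 for 1455287_at and 0.88 for 1460291_at (limma, adjusted p = 0.35, 0.29 and 0.13). At 7 h they were 0.51, 0.47 and 0.54 (adjusted p = 0.051, 0.32 and 0.4), and at 12 h 0.13, 0.34 and 0.93 (0.67, 0.44 and 0.062). With the experiment as a block 1455287_at passed at 4 h (0.013) and 7 h (0.019), 1435338_at at 7 h (0.007) and 1460291_at at 12 h (0.022). At 4 h 1460291_at also passed with the block, just under the threshold (0.05 when rounded). The values nearest the threshold also passed under other settings, 1435338_at at 7 h without quiescent 1a (0.52, 0.044) and 1460291_at at 12 h without quiescent 1b (1.02, 0.048). With the 3 quiescent arrays kept separate both passed (0.015 and 0.025), as they did with 75th percentile scaling (0.03 and 0.043), and with only the compared groups 1460291_at passed at 4 h (0.047) and 12 h (0.018). With FGF and U0126, 1435338_at was below quiescence at 4 h (-0.65) and 12 h (-0.66; adjusted p = 0.023 and 0.024), and at 7 h the difference was -0.52 (0.06, or 0.0076 with the block, 0.042 after quantile normalization and 0.047 with a stricter filter, above the array median on at least 4 arrays). For 1455287_at the 4 h difference from quiescence was -0.49 and passed with the block (0.018). The 4 h and 12 h calls treated next are those of 1435338_at in the fit without the block. The 4 h call ended without the quiescent array of experiment 2 (-0.49, 0.27) or the U0126 array of experiment 1 (-0.47, 0.21). The 12 h call ended without that quiescent array (-0.49, 0.31) or without either U0126 array (-0.58, 0.21; -0.74, 0.072). Both also ended without a variance trend (0.12 and 0.14) and with only the compared groups (0.12 and 0.062). With Ccnd1, the members called below quiescence numbered 4 at 4 h, 3 at 7 h and 1 at 12 h.

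Late U0126 also left Cdk6 low. With U0126 from 7 h and cells taken at 12 h, 1435338_at read 1970.7, against 4877.7 and 4972.2 with FGF alone at 12 h and 6393.9 and 6483.9 with FGF at 7 h. This was the lowest of all 19 arrays for that probe set, and for 1455287_at too (3694.1). Against FGF at 12 h the 3 probe sets differed by -1.32, -1.27 and -1.73 (adjusted p = 0.001, 0.028 and 0.022). Leaving out either FGF 12 h array ended the calls of 1455287_at (0.078 and 0.14) and 1460291_at (0.12 and 0.052), and both ended without a variance trend (0.16 and 0.1). Against FGF at 7 h they differed by -1.70, -1.40 and -1.34 (0.00013, 0.015 and 0.075; the last 0.03 with the block and 0.028 with only the compared groups), and 1455287_at missed without the FGF 7 h array of experiment 2 (-1.17, 0.093) and without a variance trend (0.12). In the fit with the block, the 1460291_at difference from FGF at 7 h was -1.29. With U0126 from 1 h and cells taken at 7 h the differences from FGF at 7 h were -1.23, -1.09 and -0.84. The first passed (0.0017). The second, -0.90 with the block, passed with it (0.076 without, 0.0019 with it) and with only the compared groups (0.00032). Cdk6 with late and early U0126 was not told apart at 7 h or at 12 h, where the differences were -0.53, -0.53 and -0.79 (lowest adjusted p = 0.43). At 1 h FGF with U0126 differed from FGF alone, 1 array each, by -0.06, -0.10 and 0.19.

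By the mean of 1455287_at the order resembled that of Ccnd1 at the top. FGF at 4 h (10100 ± 907, SD, n = 2), 7 h (9905 ± 2200) and 12 h (8954 ± 569) came first, then quiescent cells (7155 ± 1410, n = 2 experiments) and FGF at 1 h (5878, 1 array). FGF with U0126 followed at 7 h (5601 ± 1250), at 1 h (5484, 1 array), at 12 h (5392 ± 862) and at 4 h (5214 ± 1910), and last came U0126 from 1 h taken at 7 h (4583) and U0126 from 7 h taken at 12 h (3694). With FGF alone the 7 h arrays overlapped those at 4 h and those at 12 h, which did not overlap each other, and the groups with U0126 from the start overlapped at 4, 7 and 12 h. The group means of Ccnd1 and Cdk6, by their brightest probe sets, correlated at r = 0.91 over the 11 groups, which share their arrays and the quiescent baseline. Against Cdk6, Ccnd2 had r = -0.55, Ccnd3 -0.10 and Cdk4 -0.25.

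**Figure D4:**
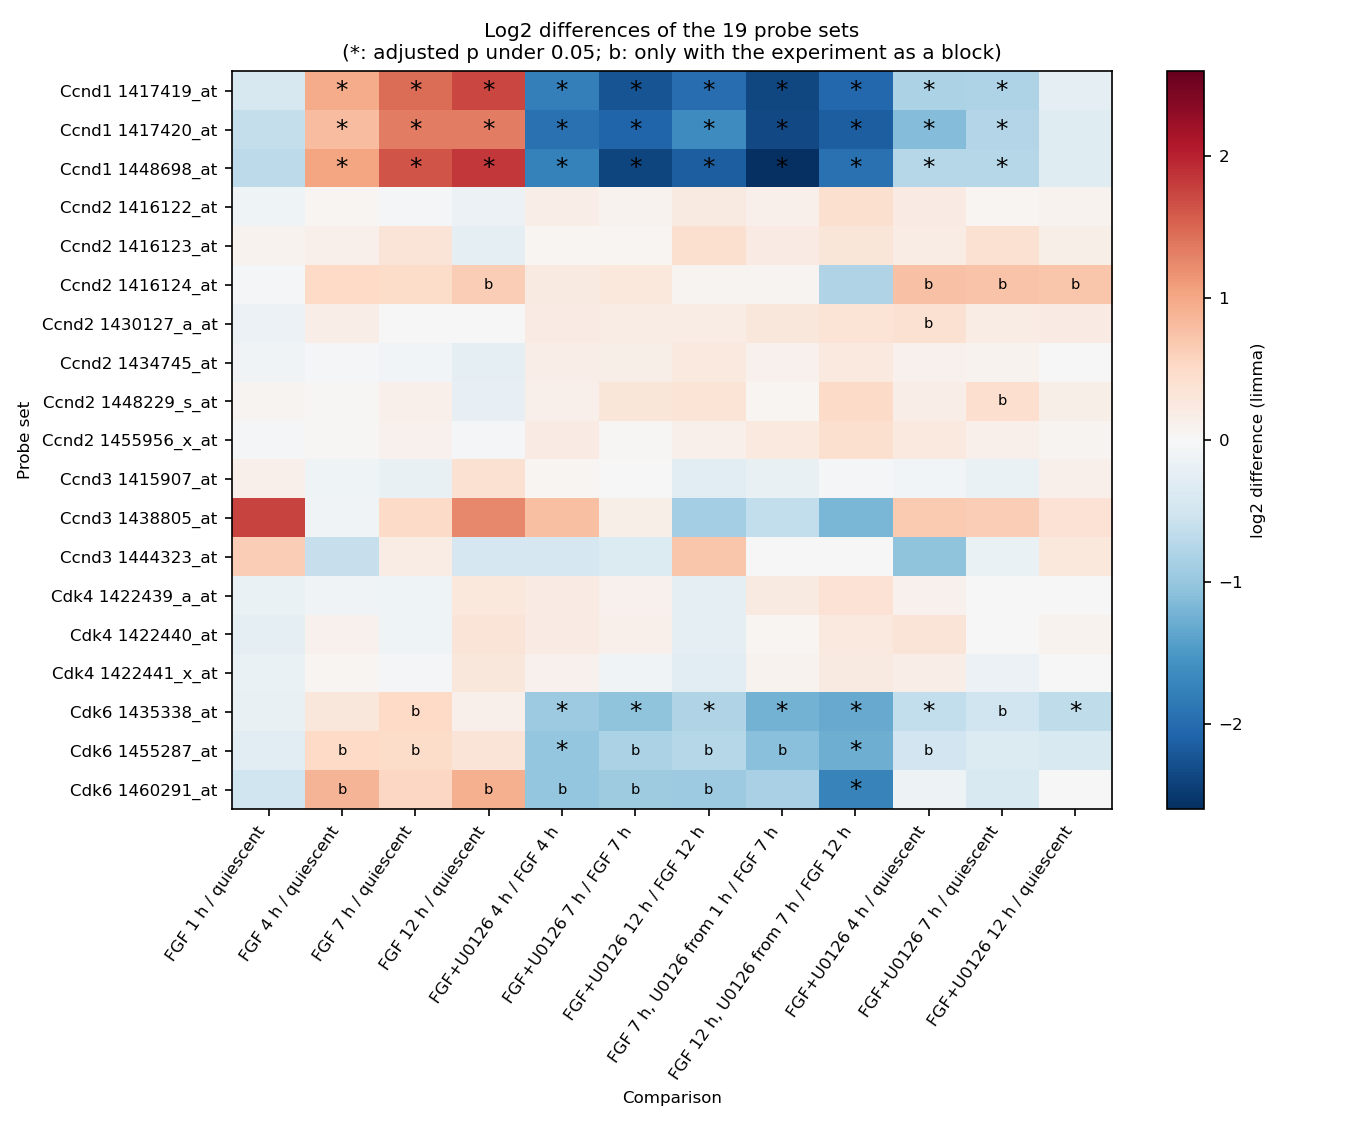
Log2 differences (colour) of the 19 member probe sets (rows) in 12 comparisons (columns, each written as group over its comparison group), with a star for an adjusted p under 0.05 and b for one reached with the experiment as a block and not in the fit without it. Stars are in the Ccnd1 and Cdk6 rows alone; the strong colours of Ccnd3 1438805_at and 1444323_at come with signals near background.

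Ccnd2, the D-type cyclin that in several tissues is induced separately from Ccnd1, had signals from 6789.2 to 11108.8 in its brightest probe set and no called difference in the 11-group fit without the experiment as a block. Its brightest probe set, 1416122_at, read 11108.8 and 8626.9 at 4 h with U0126, against 9748.0 and 7692.5 with FGF alone, and in quiescent cells it read 8103.7, 10034.8 and 7807.8. The ranges of the 3 groups overlapped. At 12 h it read 9864.8 and 8075.6 with U0126, against 8369.0 and 6789.2 with FGF alone. Averaged over 4, 7 and 12 h, the U0126 difference of 1416122_at was 0.17 (95% interval -0.04 to 0.38), opposite in sign to Ccnd1. Of the other probe sets, 1430127_a_at gave 0.21, 1434745_at 0.20 and 1448229_s_at 0.27, with adjusted p of 0.38, 0.07 and 0.062. With the experiment as a block these 4 passed (1416122_at 0.044, 1430127_a_at 0.016, 1434745_at 0.023, 1448229_s_at 0.013), and 1448229_s_at also passed without the U0126 4 h array of experiment 2 (0.33, 0.034). Under the stricter filter on dim probe sets, 1434745_at (0.045) and 1448229_s_at (0.046) passed too.

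The 7 Ccnd2 probe sets did not all follow each other. Over the 11 groups 1430127_a_at, 1455956_x_at and 1434745_at correlated with 1416122_at at r = 0.93, 0.86 and 0.81, but 1448229_s_at, 1416123_at and 1416124_at at 0.52, 0.34 and 0.26. The last, 1416124_at, read 1218.3 and 997.5 at 12 h with U0126 and 836.3 and 1292.1 at 12 h with FGF alone, against 541.6, 882.7 and 634.9 in quiescent cells. Its log2 difference from quiescence was 0.64 with FGF at 12 h (adjusted p = 0.06) and 0.76, 0.74 and 0.72 with FGF and U0126 at 4, 7 and 12 h (0.059, 0.059 and 0.085). All 4 passed with the block (0.019, 0.013, 0.014 and 0.019) and without quiescent 1b (0.022, 0.025, 0.028 and 0.036), the highest of the quiescent arrays. With arrays scaled to the same 75th percentile, the first 3 passed (0.046, 0.044 and 0.039), and the 7 h difference with U0126 also passed after quantile normalization (0.049) and with only the compared groups (0.045). The 12 h FGF difference passed as well without the FGF array of experiment 1 (0.95, 0.02). Relative to FGF alone, U0126 left this probe set without a called difference at any time. With the block, 1430127_a_at at 4 h (0.40, 0.017) and 1448229_s_at at 7 h (0.44, 0.033) with FGF and U0126 also passed above quiescence.

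Ccnd3, a D-type cyclin often found in differentiating cells, rested on 1 probe set, 1415907_at. It read 1943.4 and 1416.3 at 12 h with U0126, against 2182.0 and 1863.2 with FGF alone; at 7 h the values were 1219.1 and 1478.3 with U0126, against 1163.0 and 1528.1 with FGF alone. Quiescent arrays read 1303.9, 1686.6 and 1557.2, below both FGF arrays at 12 h. The 12 h difference from quiescence was 0.40 ± 0.19 (adjusted p = 0.19, or 0.09 with the block), and the difference from 7 h of FGF was 0.59 ± 0.19 (0.25, or 0.063). On average over the 3 times, its U0126 difference was -0.07 (95% interval -0.30 to 0.16). The dim probe sets lay near background: 1438805_at ran from 2.5 to 77.5 and 1444323_at from 17.6 to 154.3 over the 19 arrays, and neither was called in any comparison.

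Cdk4, the kinase that with D-type cyclins starts the phosphorylation of RB, had signals from 4241.9 to 7391.2 in its brightest probe set, and no difference was called in the 11-group fit without the experiment as a block. The brightest probe set, 1422441_x_at, read 5565.3 and 4840.0 at 12 h with U0126, against 6478.0 and 6127.9 with FGF alone. In quiescent cells it read 4241.9, 6310.8 and 5108.0, a range that includes both of these U0126 arrays. With U0126 from 0.5 h before FGF and with FGF alone, its 12 h signals did not overlap, while at 4 and 7 h they did. Its U0126 difference averaged -0.09 (95% interval -0.27 to 0.10), and those of 1422439_a_at and 1422440_at were 0.02 and 0.04. Against quiescence at 12 h of FGF the 3 probe sets gave 0.27, 0.33 and 0.29 (lowest adjusted p = 0.24). The single array with U0126 from 7 h taken at 12 h was the highest of all 19 for each probe set, at 4636.9, 4511.5 and 7391.2. It differed from FGF at 7 h by 0.77, 0.71 and 0.59 (limma, adjusted p = 0.11, 0.079 and 0.1, none passing). With the experiment as a block the differences were 0.62, 0.63 and 0.54, and all 3 passed (0.014, 0.025 and 0.041). In a fit on only the compared groups 1422439_a_at passed as well (0.048). From the 12 h arrays with U0126 from 0.5 h before FGF, the single array differed by 0.64, 0.50 and 0.51. The 95% intervals were 0.11 to 1.17, 0.06 to 0.93 and 0.12 to 0.90, and none passed after adjustment. On this array Ccnd1 and Cdk6 were low, as given above. The other Cdk4 probe sets each correlated at r = 0.93 with the brightest.

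Ccnd2, Ccnd3 and Cdk4 were taken as 13 probe sets over all comparisons, with 1 value per probe set and comparison. The 11-group limma fit called 0 without the block, while 27 values had an unadjusted p under 0.05 and 13 passed with the experiment as a block. Over all tested probe sets, 2.9% to 26.8% had an unadjusted p under 0.05, depending on the comparison. The block also raised the calls over all probe sets, as given at the end for FGF and U0126. Among the 11 of these 13 probe sets above the 40th percentile on all arrays, the log2 differences for U0126 ran from 0.05 to 0.24 at 4 h, -0.09 to 0.31 at 7 h and -0.28 to 0.41 at 12 h. For FGF against quiescence they ran from -0.12 to 0.52 at 4 h, -0.19 to 0.47 at 7 h and -0.26 to 0.64 at 12 h. The group means of these 11 spanned 0.37 to 0.99 log2 units, against 2.46 to 2.77 for the Ccnd1 and 1.45 to 1.73 for the Cdk6 probe sets. A missed threshold does not show that the 3 genes did not change. The number of arrays limits the precision: at 12 h of FGF the 95% interval for Cdk4 1422441_x_at was -0.03 to 0.61 and that for Ccnd3 1415907_at 0.00 to 0.80.

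The partners and opponents of the cyclin D kinases were read from 1 probe set per gene, the brightest tested, for 14996 genes. Of 5 measured genes of the INK4 and CIP/KIP families, 3 were lower at 4 h of FGF, 3 at 7 h and 2 at 12 h than in quiescence, and 0 higher. Their median log2 differences were -0.92, -0.85 and -0.63, against medians of -0.09, -0.05 and -0.01 over all genes. Over all genes 3.18% were called higher and 3.87% lower at 4 h, 4.51% and 5.86% at 7 h, and 7.63% and 10.3% at 12 h. Cdkn1b (p27) fell at 12 h, with a difference of -1.10 ± 0.28 (adjusted p = 0.017), with signals of 766.7 and 540.9, against 1794.7, 1352.0 and 1249.4 in quiescent cells. Cdkn2c (p18), an inhibitor of CDK4 and CDK6, also fell, at -0.63 ± 0.15 (0.0084) with 3729.5 and 3854.0, against 6118.5, 5813.0 and 5799.7. With U0126, 1 of the 5 was higher at 4 h than with FGF alone and 0 at 7 and 12 h by limma. At both of these later times 3 had an unadjusted p under 0.05, counted in either direction. With the block 2 were higher at both times, and at 12 h 1 was lower. The single call was Cdkn1a (p21) at 1.17 ± 0.26 (adjusted p = 0.02), named after its value was seen, at 6863.8 and 8986.0, against 2866.4 and 4214.6 with FGF alone. Without a variance trend the counts below quiescence were 0, 1 and 0 at 4, 7 and 12 h, and with the block they were 4, 4 and 3. The counts also turned on single arrays: the count below quiescence was 1 at 4 h without the experiment 2 array of quiescence or of FGF, 1 at 7 h without quiescent experiment 2 or FGF experiment 1, and 1 at 12 h without either FGF array or without both quiescent arrays of experiment 1. The Cdkn1a call ended without FGF 4 h experiment 1 or U0126 4 h experiment 2, and without a variance trend. Beside this, 2.61% of genes were called higher and 2.23% lower with U0126 at 4 h, 2.47% and 2.59% at 7 h, and 5.15% and 5.13% at 12 h.

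Downstream of RB, the counts grew with time, as did the shares over all genes. Of all genes, 3.18%, 4.51% and 7.63% were called higher and 3.87%, 5.86% and 10.3% lower at 4, 7 and 12 h of FGF. With U0126, 2.23%, 2.59% and 5.13% were called lower than with FGF alone. Of 12 measured pocket protein and E2F-DP genes, 1 was higher and 1 lower than quiescence at 4 h of FGF, 3 and 1 at 7 h, and 7 and 1 at 12 h (medians -0.07, 0.32 and 1.23). With U0126, 3, 5 and 8 of them were lower than with FGF alone and 0 higher (medians -0.41, -0.62 and -1.29). E2f8, an atypical repressor E2F, differed by 3.43 ± 0.46 between FGF at 12 h and quiescence and by -5.06 ± 0.46 between U0126 and FGF alone. Its 12 h signals were 32.2 and 6.4 with U0126, near background, against 1142.8 and 873.6 with FGF alone, so the size of the U0126 difference depends on the offset. The other named genes were E2f7, also an atypical E2F (1.58 with FGF and -3.11 with U0126), E2f2, an activator (2.51 and -2.02), and Rbl1, which encodes p107 (2.25 and -2.18). Of 5 genes of cyclin E, cyclin A, CDK2 and CDC25A, which act after cyclin D, 1, 3 and 4 rose at 4, 7 and 12 h of FGF, and 0 (0 at an unadjusted p under 0.05, 0 with the block), 2 and 4 were lower with U0126 by limma. At 12 h Ccne2 read 78.1 and 124.9 with U0126 and 2685.7 and 1530.9 with FGF alone, against 170.9, 175.8 and 116.8 in quiescent cells. Its log2 differences were 3.71 ± 0.33 for FGF against quiescence and -4.18 ± 0.33 for U0126 against FGF alone; in the same order those of Ccne1 were 3.34 and -3.09, of Ccna2 2.32 and -2.68, and of Cdc25a 1.91 and -1.27. At 12 h these counts moved by at most 1 when an array was left out, but earlier ones were less firm. Leaving out any 1 of the 4 arrays compared at 7 h took the 5 pocket protein and E2F genes lower with U0126 to 1 or 2 and the 2 cyclin E and A genes to 0 or 1, and leaving out quiescent experiment 2 took the 3 cyclin E and A genes higher at 7 h of FGF to 1. Without a variance trend 2 pocket protein and E2F genes and 1 cyclin E or A gene were lower with U0126 at 7 h. With the block, 2 pocket protein and E2F genes were higher and 2 lower at 4 h of FGF, 2 were lower at 7 and at 12 h, and 5 were lower with U0126 at 4 h.

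Among 14 measured E2F target genes of S phase, 2, 9 and 14 were higher than quiescence at 4, 7 and 12 h of FGF, with medians of 0.17, 0.99 and 2.31. With U0126, 3, 11 and 14 were lower than with FGF alone, with medians of -0.60, -1.75 and -2.86, against 0.04, -0.04 and 0.05 over all genes. The shares of all genes called are those given for the genes downstream of RB. Cdc6, a loader of the replicative helicase, differed by 4.23 ± 0.44 between FGF at 12 h and quiescence and by -5.32 ± 0.44 between U0126 and FGF alone. Tk1, thymidine kinase, gave 3.94 and -5.03. The helicase subunits Mcm5 (3.42 and -4.02) and Mcm6 (3.11 and -3.82) had the same directions. Cdc6 read 48.2 and 19.7 with U0126 at 12 h, near background, so the size of its U0126 difference depends on the offset. For these targets the 12 h counts of 14 held in every alternative tried, while the 4 h counts ran from 0 to 3 for FGF and from 0 to 9 for U0126. The 4 h count for U0126 was 0 or 1 without any 1 of its 4 arrays, 9 with the block, and 0 without a variance trend or with only the compared groups. The 4 h count for FGF was 0 without a variance trend and without FGF experiment 1 or 2 or quiescent experiment 2, and 1 without quiescent 1a or 1b. At 4 h of FGF, when the 3 Ccnd1 probe sets were called higher, 2 of these 14 targets were.

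**Figure D5:**
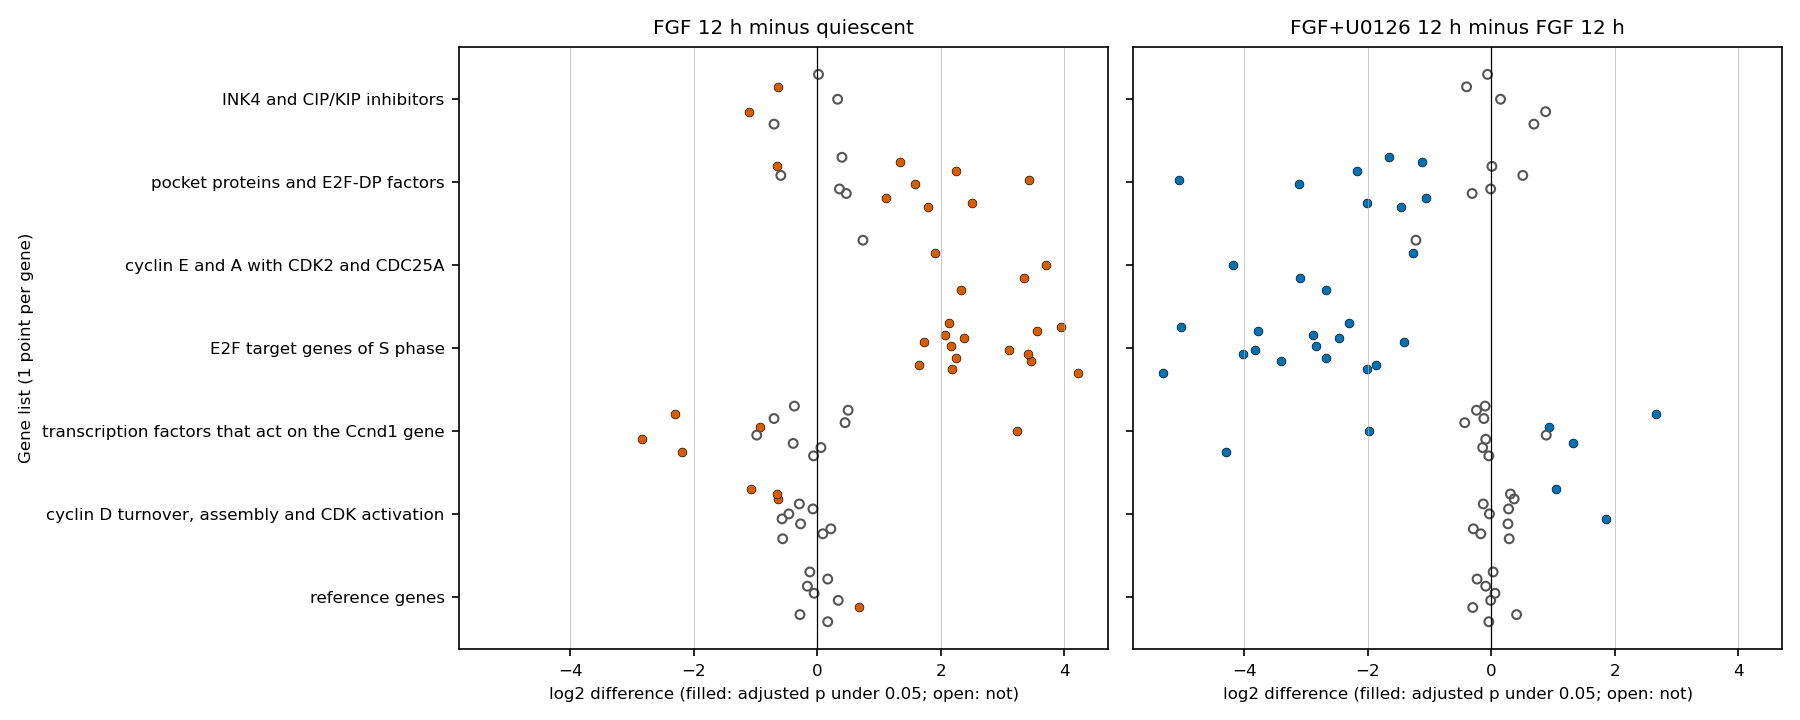
Log2 difference (x axis) of each measured gene (points) of 7 gene lists (rows) at 12 h: FGF with quiescent cells as the baseline on the left, and FGF with U0126 against FGF alone on the right; filled points have an adjusted p under 0.05. All 14 S-phase targets are filled to the right of 0 with FGF and to the left of 0 with U0126, and the reference genes cluster near 0.

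Upstream of Ccnd1, 13 transcription factors known to act on the gene were measured. Against quiescence 2 were higher and 2 lower at 4 h, 2 and 3 at 7 h, and 1 and 4 at 12 h (medians -0.35, -0.42 and -0.39). With U0126, 2, 3 and 3 were higher and 3, 2 and 2 lower than with FGF alone (medians -0.16, -0.13 and -0.10). Of all genes, 3.18%, 4.51% and 7.63% were called higher and 3.87%, 5.86% and 10.3% lower at 4, 7 and 12 h of FGF. With U0126 the shares were 2.61%, 2.47% and 5.15% higher and 2.23%, 2.59% and 5.13% lower. Fosl1, an AP-1 subunit, was 3.51, 3.34 and 3.23 higher than quiescence at 4, 7 and 12 h, and with U0126 it differed from FGF alone by -1.18, -1.24 and -1.98. The Fosl1 arrays at 4 h with U0126 read 1619.2 and 1705.7, against 4251.2 and 3357.5 with FGF alone, and quiescent cells read 276.3, 391.9 and 310.7. The Fosl1 arrays with U0126 were thus above the quiescent ones, while those of Ccnd1 1417420_at were below them. Egr1, an immediate early zinc finger factor, differed by -4.29 ± 0.29 between U0126 and FGF alone at 12 h. It read 43.4 and 60.7 with U0126 at 12 h, near background, so the size of this difference depends on the offset. Jund differed by -2.30 from quiescence at 12 h of FGF and by 2.66 between U0126 and FGF alone, and Fos by -2.83 from quiescence at 12 h of FGF. The quiescent baseline of Fos varied widely, at 203.9, 565.4 and 1297.5, against 69.0 and 97.3 at 12 h of FGF. That of Egr1 was 2889.0, 6135.1 and 8039.0, above the 1131.7 and 1404.3 read at 12 h of FGF. With the experiment as a block, 5, 6 and 6 factors were lower than quiescence at 4, 7 and 12 h and 3 were higher at 12 h. The 12 h count of 1 higher factor was 3 without quiescent 1b and 2 without quiescent experiment 2 or FGF experiment 2, and the 4 h count of 3 lower with U0126 was 1 without the experiment 1 array of FGF or of U0126. The 4 h count of 2 lower than quiescence was 1 without quiescent 1b, quiescent experiment 2 or either FGF array. Without a variance trend 1 factor was lower with U0126 at 4 h and 1 at 7 h, and 1 was lower than quiescence at 4 h.

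Of 11 measured genes for cyclin D turnover, chaperoning and CDK activation, 1, 1 and 3 were lower than quiescence at 4, 7 and 12 h of FGF and 0 higher (medians -0.18, -0.26 and -0.46). With U0126, 0 (1 at an unadjusted p under 0.05 in either direction, 0 with the block), 2 and 2 were higher by limma (medians -0.02, 0.06 and 0.28). The shares of all genes called are those given for the transcription factors above. Cryab, a small heat shock protein that serves an SCF ligase for cyclin D1, was 1.85 ± 0.21 higher with U0126 at 12 h (adjusted p = 5.4e-05). Usp2, a deubiquitinase of cyclin D1, differed by -1.07 from quiescence at 12 h of FGF and by 1.04 between U0126 and FGF alone. Mnat1, an assembly factor of the CDK-activating kinase, fell at 12 h of FGF (-0.65), as did Gsk3b, a kinase that marks cyclin D1 for degradation (-0.63). The 12 h count of 3 was 0 without quiescent experiment 2 or FGF experiment 1 and 1 without both quiescent arrays of experiment 1 or without a variance trend, and the block gave 3, 2 and 4 at 4, 7 and 12 h. With U0126 the 12 h count of 2 was 1 without FGF experiment 1 or U0126 experiment 2, and the 7 h count was 0 or 1 without any 1 of the 4 arrays compared. Of 8 measured reference genes, 0, 1 and 1 were higher at 4, 7 and 12 h of FGF, Hprt both times (0.68 ± 0.12 at 12 h), and 0 were called with U0126 by limma (at 12 h, 1 at an unadjusted p under 0.05 and 1 with the block). The 7 h Hprt call ended without quiescent experiment 2, FGF experiment 1 or both quiescent arrays of experiment 1.

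Other genes followed Ccnd1 and Cdk6 closely over the 11 group means. Among 8545 genes whose group means spanned over 1 log2 unit, those most like Ccnd1 were Fam171a1 (r = 0.972), Emp1 (0.968), Stn1 (0.965), Wnt5a (0.964) and Rasa1 (0.961). On the log2 scale, Wnt5a, a secreted WNT ligand, averaged 8.11, 8.88 and 8.79 at 4, 7 and 12 h with U0126 and 9.57, 10.24 and 10.22 with FGF alone, against 8.92 in quiescent cells. Nearest to Cdk6 were Peak1 (r = 0.976), Sf3b3 (0.971), Spred1 (0.970), Etv5 (0.967) and Gramd4 (0.959). Etv5, an ETS factor, had the widest span of these, with log2 means of 8.15, 7.93 and 7.28 at 4, 7 and 12 h with U0126 and 10.81, 10.78 and 10.43 with FGF alone, against 9.0 in quiescent cells. These correlations describe 11 groups that share arrays and a baseline, and carry no test.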

How the data were processed

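Quiescent NIH3T3 cells and cells given FGF, with or without U0126, were measured on Affymetrix mouse arrays from 10 µg of total RNA. The authors deposited 1 intensity per probe set and array, which the submitters' processing notes call MAS5; its version and scaling target are not given in the sources used here. All 19 columns were matched to samples by their labels. Of 45101 probe sets, 64 controls were left out, 34945 carry 1 gene symbol, 932 several and 9160 none in GEO's platform annotation, and 34741 were matched to RefSeq genes by Entrez ID.

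Intensities were turned into log2(signal + 13.6), the offset being the 20th percentile of all signals, so differences of dim probe sets are understated. Quiescent 1a and 1b were averaged. Tested were the 34537 probe sets that on 2 or more arrays exceeded the 40th percentile of that array, with limma 3.58.1 (R 4.3.3; lmFit, eBayes with a variance trend, 7 residual degrees of freedom) on 11 groups, with Benjamini-Hochberg adjustment over all probe sets and a threshold of 0.05. Groups with 1 array took their spread from the others. Comparisons with quiescence share its arrays, and those at 1 time share the FGF arrays. The procedure was tested on simulated data. Replicate numbers come from labels that name an experiment. Over 21 pairs of groups, deviations of same-numbered columns from their group means correlated at 0.111 to 0.281 (median 0.204), so the numbers were taken to pair the samples, and a fit blocked on experiment, which leaves 6 residual degrees of freedom, is given where it changes a call.

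The members and gene lists were chosen with earlier results of these data known. All member probe sets are named; of each list, up to 4 called genes of largest absolute change at 12 h are named, and for Ccnd1 and Cdk6 the 5 genes of highest correlation over group means. Other normalizations, offsets, filters and left-out arrays were tried as alternatives. Tables were made with Python 3.11.15 and pandas 2.3.3, figures with matplotlib 3.10.9.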

Additional observations from a re-analysis of the deposited data

How the results depend on the processing

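No call of a member probe set changed direction under any alternative tried. Of 3 Ccnd1 probe sets, 888 alternative values kept their side of the threshold, 25 lost it and 1 gained it; for Cdk6 the numbers were 860, 22 and 32, for Ccnd2 2082, 0 and 24, for Cdk4 910, 0 and 4, and for Ccnd3 894, 0 and 0. With the replicate block, that is with the experiment as a term, members called numbered 5 at 4 h, 5 at 7 h and 5 at 12 h of FGF against quiescence, 1 for FGF at 7 h against 4 h, 10 for the average U0126 difference, 7, 6 and 2 for FGF with U0126 at 4, 7 and 12 h against quiescence and 9 for U0126 from 7 h against FGF at 7 h; it changed no other count of called members by over 1.5 times. With 1 probe set per gene, which leaves at most 5 members, the counts were 1, 1 and 1 for FGF against quiescence, 2, 1 and 1 for U0126 at 4, 7 and 12 h, 2 on average, 1, 1 and 0 for FGF with U0126 against quiescence, and 1, 2 and 2 for late U0126 against FGF at 7 h, at 12 h and (added at 7 h) at 7 h. Scaling to the 75th percentile gave 5 members at 12 h of FGF. For FGF with U0126 against quiescence, quantile normalization and the stricter filter gave 5 each at 7 h, no variance trend gave 1, 0 and 0 at 4, 7 and 12 h, and fits on only the compared groups gave 1 at 4 h and 0 at 12 h. Leaving out 1 array gave 1 to 3 members at 4 h and 3 to 5 at 12 h of FGF against quiescence, and 1 to 4, 0 to 3 and 0 to 2 for FGF with U0126 at 4, 7 and 12 h. The cause was not tested. Over all probe sets the block raised the calls to 445 from 104 at 1 h of FGF, 4227 from 1796 at 4 h, 5269 from 2630 at 7 h and 7876 from 4839 at 12 h, and for U0126 to 3120 from 1242, 3078 from 1342 and 5255 from 2733 at 4, 7 and 12 h; without a variance trend these were 43, 789 and 1364 at 1, 4 and 7 h of FGF and 653, 613 and 1670 for U0126. Signal over background limits Ccnd3 1438805_at and 1444323_at.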
